A study of Rattus norvegicus with 12 samples.

Results

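The genes described here were 9 imprinted growth regulators, H19, Dlk1, Meg3, Mest, Peg3, Plagl1, Grb10, Ndn and Nnat, read in the mammary gland of young female rats. They were chosen by name, as every gene spot of the arrays that carried one of these gene symbols. Of the 9 genes, 7 had a probe, with 10 probes in all, and all 7 passed the filter on dim probes. Meg3 and Peg3 had none under these symbols and were not analysed here. The arrays held 26456 gene names in all, 20199 of them with a probe that was tested.

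The rats were the daughters of Wistar dams. During pregnancy the low protein (LP) dams received a diet with 8.8% protein, and the normal protein (NP) dams an isocaloric diet with 17.0%. After birth all dams were given standard chow, litters were reduced to 6 females, and the pups ate the same chow after weaning. RNA of the whole lumbar mammary gland, freed of visible lymph nodes, was hybridised to 1-colour Agilent rat arrays on postnatal day 21 and day 28, with 3 rats and 3 arrays in each of the 4 groups (NP d21, LP d21, NP d28, LP d28). The labels do not say whether rats of a group came from separate litters, so each p-value covers only the spread between these rats.

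An imprinted gene is transcribed mainly from the copy inherited from the mother or from that of the father, the other copy being largely silent. In most cases the copies are told apart by DNA methylation set in the germ line. Many of these genes act on fetal growth, and as a broad pattern the paternally expressed ones promote it while the maternally expressed ones restrain it. Expression of several of them is high before birth and declines in young animals as growth slows. An array reads the RNA of both copies together, so these data hold no information on which copy was transcribed.

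The probes of 2 members are shown. H19 was the 1 member with a probe whose RNA is not translated (Meg3, also non-coding, had no probe). Dlk1 was the member whose signal lay at the edge of background. On the rn4 build, the H19 probe covers chr1:202822987-202823046 on the minus strand and the Dlk1 probe chr6:134028313-134028372 on the plus strand.
H19 probe: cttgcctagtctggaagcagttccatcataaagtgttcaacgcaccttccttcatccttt
Dlk1 probe: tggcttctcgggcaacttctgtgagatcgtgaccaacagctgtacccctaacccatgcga
In RefSeq annotation of the GRCr8 build, the H19 gene holds the hairpin of miR-675, whose mature strands are given with the seed (bases 2 to 8) in capitals. The arrays did not read these small RNAs.
rno-miR-675-5p: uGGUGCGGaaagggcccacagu
rno-miR-675-3p: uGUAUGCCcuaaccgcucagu
Promoter sequence from RefSeq was used for 7 of the 9 genes (those of H19 and Nnat were not used here). Imprinting control acts through methylation of CpG sites, so CG pairs were counted in the 250 bases before 1 transcript start of each gene. For Dlk1, Grb10, Peg3 and Plagl1 this start lay inside the annotated gene, with 106, 12, 29 and 250 bases of the stretch within it. The CG pairs numbered 10 in Meg3, 10 in Ndn, 11 in Peg3, 15 in Mest, 23 in Plagl1, 38 in Grb10 and 41 in Dlk1. The median was 5 over 33469 rat promoters, of which 92.2% held at least 1 CG. Of these promoters, 64.1% held fewer CG pairs than Meg3 and Ndn, 66.4% fewer than Peg3 and 74.2% fewer than Mest. For Plagl1, Grb10 and Dlk1 the shares were 87.7%, 98.3% and 99.0%. The promoters of Mest and Ndn are shown, with each CG in capitals, because these genes followed Nnat and H19 from array to array. The Mest stretch lies at chr4:60321564-60321813 and the Ndn stretch at chr1:125260809-125261058 of GRCr8, both on the plus strand.
Mest promoter: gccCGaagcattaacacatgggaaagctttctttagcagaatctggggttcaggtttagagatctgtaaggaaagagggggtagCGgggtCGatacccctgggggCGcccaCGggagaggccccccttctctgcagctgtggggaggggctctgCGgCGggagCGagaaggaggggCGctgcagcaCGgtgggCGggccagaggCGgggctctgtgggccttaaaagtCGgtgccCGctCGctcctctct
Ndn promoter: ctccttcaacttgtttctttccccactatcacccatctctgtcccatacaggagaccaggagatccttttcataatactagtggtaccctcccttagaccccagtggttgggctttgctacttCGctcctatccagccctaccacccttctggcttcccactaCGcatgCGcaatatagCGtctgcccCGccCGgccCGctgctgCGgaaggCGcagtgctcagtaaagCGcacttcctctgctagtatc
These counts describe the sequence only, and whether a stretch takes part in imprinting control was not examined. Methylation was not measured in these samples.

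All values are log2 signals relative to the 75th percentile of the array (after background subtraction by the scanner software), so a gene at 0 was as bright as the probe at that rank. Values of 1 probe were compared between rats and never with those of another probe. Between 74.8% and 79.6% of gene spots were well above background on each array, and none was saturated. All 12 arrays read 6 of the 7 members well above background, Dlk1 being the exception. Luminal (11 of 11 genes) and basal or myoepithelial markers (8 of 8 genes) passed the filter on dim probes. Skeletal muscle RNA varied widely within groups, the mean level of 11 muscle genes ranging from -4.62 to 2.92. NP d28 rat 4f and LP d21 rat 6a stood apart from the other arrays over all probes. In rat 6a the B cell genes were at -6.44, against -1.65 to -0.11 on the other 11 arrays. All day 21 arrays were on 1 slide and all day 28 arrays on another, so a difference between days cannot be told apart from one between slides; LP and NP were always set side by side on the same slide.

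**Figure D1:**
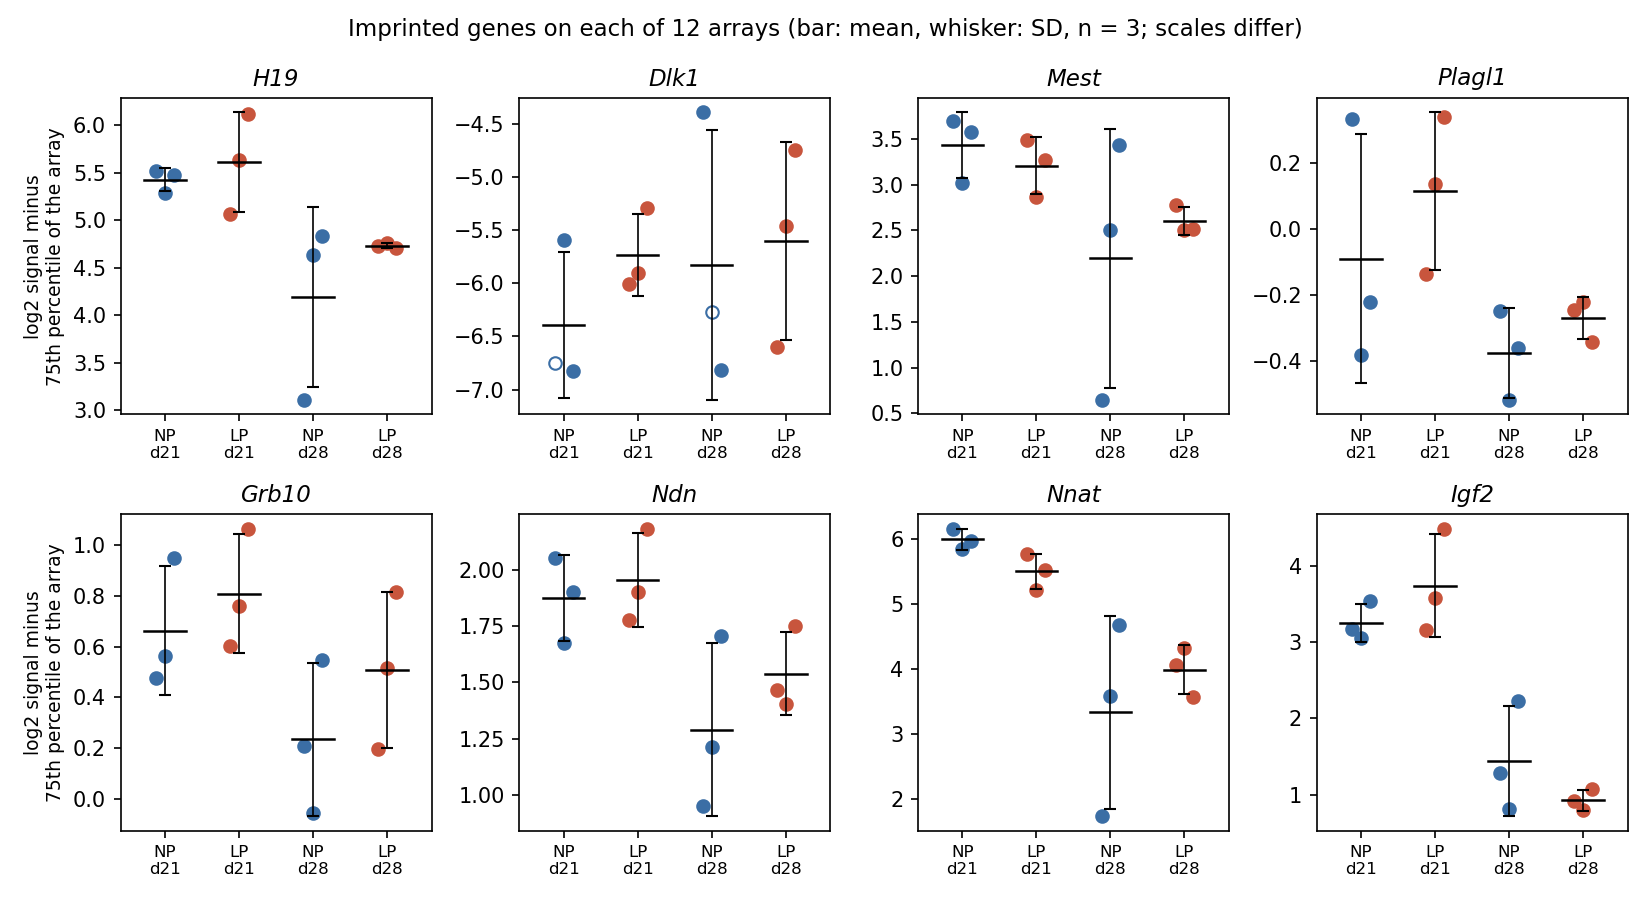
Log2 signal of 7 imprinted growth regulators and of Igf2, relative to the 75th percentile of each array, for every rat in the 4 groups (blue NP, red LP, n = 3). Bars give the mean and whiskers the SD, and the vertical scale differs between genes. An open circle is a rat in which no spot of the probe was well above background. For Dlk1, 3 filled circles had 1 of 2 spots above it. Nnat and H19 had no day 28 rat as high as the lowest day 21 rat, and NP d28 rat 4f was the lowest of all 12 rats for H19, Mest, Ndn and Nnat.

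Between day 21 and day 28, Nnat fell in both diet groups, by 2.09 on the log2 scale (4.26-fold lower; SE 0.41; limma adjusted p = 0.0385), taking the mean of the NP and LP changes. Nnat encodes neuronatin, a small membrane protein of the endoplasmic reticulum that acts on calcium handling, and is transcribed from the paternal copy. It was the 1 member called among 7, where 1.81% of the 23209 tested probes were called and 0.767% were called lower. The other 5 members that were well above background throughout (H19, Mest, Ndn, Grb10 and Plagl1) were also lower on day 28 with an unadjusted p under 0.05, but none of them passed the adjusted threshold. The members' median difference was -0.50, against 0.01 over all tested probes, and 6 of 7 had a lower mean on day 28, compared with 47.6% of all probes (9.35% of them lower at an unadjusted p under 0.05). A lower signal in whole tissue can come from fewer cells of a type or from less RNA per cell, and the 2 cannot be told apart here.

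Nnat was at 6.16, 5.85 and 5.97 in the NP rats of day 21 and at 5.77, 5.22 and 5.52 in the LP rats of that day. On day 28 it was at 1.73, 3.58 and 4.68 in the NP rats and at 4.06, 4.32 and 3.57 in the LP rats. Every day 28 rat was thus below every day 21 rat, with no overlap within either diet. Non-overlap of the 6 rats of each day, in the direction of a lower day 28, was seen for 2 members (Nnat and H19) and for 2% of all tested probes. The exact permutation test of the mean change, which exchanged days within each diet, gave p = 0.005 for both genes, the smallest value its 400 arrangements allow (two-sided). Non-overlap within both diets fixes the p of this test at that value, so it adds no support of its own. Only 18 of the 23209 probes were as low as Nnat or lower in the size of this change, Nnat's own included.

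The second Nnat probe gave a similar picture. It fell by 2.32 (SE 0.42, limma adjusted p = 0.0303), and both probes followed each other across the 12 arrays (r = 0.997, a description). Within NP the first probe differed by -2.67 (95% confidence interval -3.96 to -1.37, limma adjusted p = 0.109) and within LP by -1.52 (-2.81 to -0.23, limma adjusted p = 0.431). Neither diet alone therefore carried the change past the adjusted threshold. Without NP d28 rat 4f the fall over both diets was 1.69 (limma adjusted p = 0.0131), so the call did not rest on the lowest rat. Of 12 fits that each left out 1 rat, 2 kept the call (those without NP d28 rat 4f and without NP d28 rat 6f), and 9 of all 23 alternatives did, with an adjusted p from 0.0131 to 0.0938. A block for the replicate number in the titles lost the call, with limma adjusted p = 0.0887 over all arrays and 0.0938 within diet.

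H19, the maternally expressed non-coding RNA beside Igf2, was lower on day 28 by 1.06 (2.08-fold; SE 0.29; limma adjusted p = 0.0934). Its values were 5.52, 5.29 and 5.47 in NP d21, 5.07, 5.64 and 6.12 in LP d21, 3.11, 4.64 and 4.83 in NP d28, and 4.73, 4.76 and 4.71 in LP d28. The LP rats of day 28 lay close together (SD 0.03, n = 3), whereas those of day 21 held both the lowest and the highest value of that day (SD 0.53, n = 3). Within NP the difference was -1.24 (95% confidence interval -2.14 to -0.34) and within LP -0.88 (-1.78 to 0.02). Without NP d28 rat 4f the difference over both diets was -0.79.

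Mest and Ndn, both transcribed from the paternal copy, showed smaller differences. Mest, a membrane enzyme of the hydrolase family whose level in fat tracks adipocyte expansion, was at 3.69, 3.02 and 3.57 in NP d21, at 3.48, 2.87 and 3.27 in LP d21, at 0.65, 2.50 and 3.43 in NP d28 and at 2.78, 2.51 and 2.51 in LP d28. Its LP rats did not overlap between days, but its NP rats did, 1 of them (rat 6f) remaining at the day 21 level. The day 28 difference over both diets was -0.92 (SE 0.39, limma adjusted p = 0.238), and it shrank to -0.54 without NP d28 rat 4f, more than 1.5 times smaller. Ndn encodes necdin, a protein of the MAGE family that holds back the cell cycle in maturing cells. It was at 2.06, 1.68 and 1.90 in NP d21, at 1.78, 1.90 and 2.19 in LP d21, at 0.95, 1.21 and 1.71 in NP d28 and at 1.47, 1.40 and 1.75 in LP d28. The days again did not overlap within LP and overlapped within NP. The difference of Ndn was -0.50 (SE 0.14, limma adjusted p = 0.103). Leaving out NP d28 rat 6f took it to -0.61 (limma adjusted p = 0.0483), the 1 of 22 alternatives that called it; over these the adjusted p ran up to 0.205. The 10 spots of the Ndn probe on each array had a median SD of 0.04, against a median SD of 0.20 between the arrays of a group, each array being 1 rat and 1 hybridisation.

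By the brightest probe of each gene, Grb10 and Plagl1 differed least among the members that were well above background throughout. Grb10, an adaptor that dampens signalling of the insulin and IGF1 receptors, ranged from 0.47 to 1.07 on day 21 and from -0.06 to 0.81 on day 28. The days overlapped in both diets, with a difference of -0.37 (SE 0.15, limma adjusted p = 0.229). Its second probe differed by -0.26 (limma adjusted p = 0.466). Plagl1, a zinc finger transcription factor known to act on other imprinted genes, ranged from -0.38 to 0.34 on day 21 and from -0.52 to -0.22 on day 28. It was lower on day 28 by 0.33 at the first probe (SE 0.13, limma adjusted p = 0.208) and by 0.75 at the second (SE 0.18, limma adjusted p = 0.0696). The 2 Plagl1 probes, which lie at different places of the gene, followed each other only loosely across the 12 arrays (r = 0.387, against 0.804 for Grb10), so the size of the Plagl1 difference depends on the probe.

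Dlk1, a membrane protein with EGF-like repeats that keeps preadipocytes from maturing, was read at the edge of detection. Its 2 spots gave 24 readings over the 12 arrays, with processed signals between 16.0 and 119.8, of which 17 were well above background. On 7 arrays both spots passed, on 3 arrays 1 spot, and on 2 arrays neither did (NP d21 rat 4a and NP d28 rat 5f). The brightest array was NP d28 rat 4f, the rat in which 4 other members were lowest. The 2 spots of an array differed by up to 0.54, and day 28 minus day 21 over both diets was 0.35 (95% confidence interval -0.68 to 1.37). This interval was too wide to tell a rise of Dlk1 from a fall. The median SD was 0.81 between the rats of a group, against 0.18 between the 2 spots of an array. The direction of the difference turned without NP d28 rat 4f (-0.01).

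**Figure D2:**
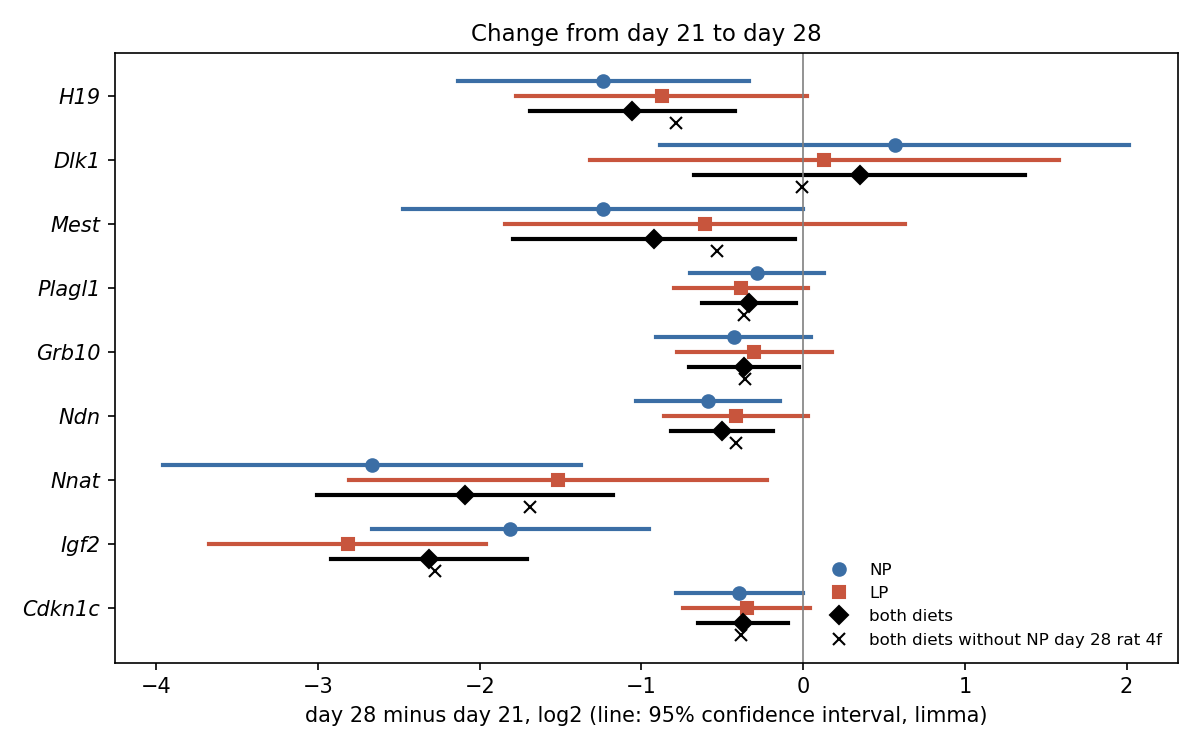
Day 28 minus day 21 (log2) of each gene in NP (blue), in LP (red) and over both diets (black), with 95% confidence intervals from limma; crosses give the value over both diets without NP d28 rat 4f. Nnat and Igf2 lie farthest to the left, at -2.09 and -2.31, and every member but Dlk1 lies to the left of 0.

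Within each diet taken alone, no member was called in the change between days, where 0.25% of all tested probes were called in NP and 0% in LP. At an unadjusted p under 0.05 the lower members were H19, Ndn and Nnat in NP (3 of 7, against 4.9% of all probes lower) and Nnat in LP (1 of 7, against 5.65%). The days did not overlap for 2 members in NP (Nnat and H19) and for 5 in LP (these and Mest, Ndn and Plagl1), in all cases with day 28 lower. Such non-overlap was found for 7.01% of all probes in NP and for 11.5% in LP. With 3 rats against 3 the exact permutation test cannot go below p = 0.1. The mean differences of H19, Mest, Ndn and Nnat were larger in NP than in LP, but without NP d28 rat 4f those in NP were -0.69, -0.46, -0.42 and -1.87, against -0.88, -0.61, -0.42 and -1.52 in LP.

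NP d28 rat 4f was the lowest of the 12 rats for H19, Mest, Ndn and Nnat, 4 of the 6 members well above background throughout. In this rat the 9 fibroblast and matrix genes (Col1a1, Col3a1 and others) had a mean level of 1.67, against 2.63 to 3.02 in the other 11. The 9 proliferation genes (Mki67, Top2a and others) were at -2.45, against -0.73 to -0.05. The luminal list was at -1.17 (-0.82 to 1.15 in the others) and the basal list at -1.74 (-1.07 to 0.67), while the adipocyte list, at 2.93, lay inside the range of the other rats (2.52 to 3.02). Across the 12 arrays Nnat followed the fibroblast and matrix list with r = 0.690 and the proliferation list with r = 0.767. Without this rat the values were 0.06 and 0.41, and those of Mest went from 0.810 to 0.01 and from 0.840 to 0.254. These are descriptions over arrays that share normalisation, and the part of these lists in the members' levels was not tested. The fibroblast and matrix list itself held no called gene between days over both diets, with 2 of 9 genes lower at an unadjusted p under 0.05. The proliferation list held none either, with 1 of 9 lower. Over all probes 0.767% were called lower, and 9.35% were lower at an unadjusted p under 0.05. The muscle list, which varied most between rats, followed the 6 members with r from 0.184 to 0.378.

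The mean levels of nerve and endothelial markers were also lower on day 28 in most rats. The 9 nerve and Schwann cell genes had a mean level of -0.20 to 0.05 in NP d21 and -0.24 to 0.02 in LP d21, against -0.55 to -0.20 in NP d28 and -0.54 to -0.40 in LP d28. None of them was called by limma over both diets, and 4 of 9 were lower at an unadjusted p under 0.05 (9.35% of all probes). The median difference was -0.30 over the list, against 0.01 over all probes. Nnat followed this list with r = 0.843 across the 12 arrays and 0.878 without NP d28 rat 4f, and Igf2 with 0.905 and 0.904. For H19, Mest and Ndn the values over 12 arrays were 0.740, 0.721 and 0.749, and without that rat 0.769, 0.809 and 0.707. The 7 endothelial genes were at -0.15 to 0.13 in NP d21, -0.22 to 0.01 in LP d21, -0.30 to -0.03 in NP d28 and -0.51 to -0.36 in LP d28. Tie1, an endothelial receptor kinase, fell by 0.63 (SE 0.12, limma adjusted p = 0.035). It was the 1 gene of 7 called, where 0.767% of all probes were called lower. At an unadjusted p under 0.05, 3 of 7 were lower (9.35% of all probes). Nnat followed the endothelial list with r = 0.349 over 12 arrays and 0.820 without NP d28 rat 4f, and Igf2 with 0.713 and 0.847. All genes of both lists passed the filter on dim probes. Their part in the members' lower levels was not tested. All these r values pool the days, so a difference between days that list and gene share enters them. With the adipocyte list and with 8 preadipocyte and stroma genes, Nnat had r = -0.276 and -0.044 over 12 arrays. Without NP d28 rat 4f these were -0.216 and 0.072. For Mest they were -0.113 and 0.035 over 12 arrays, and 0.073 and 0.281 without that rat.

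**Figure D3:**
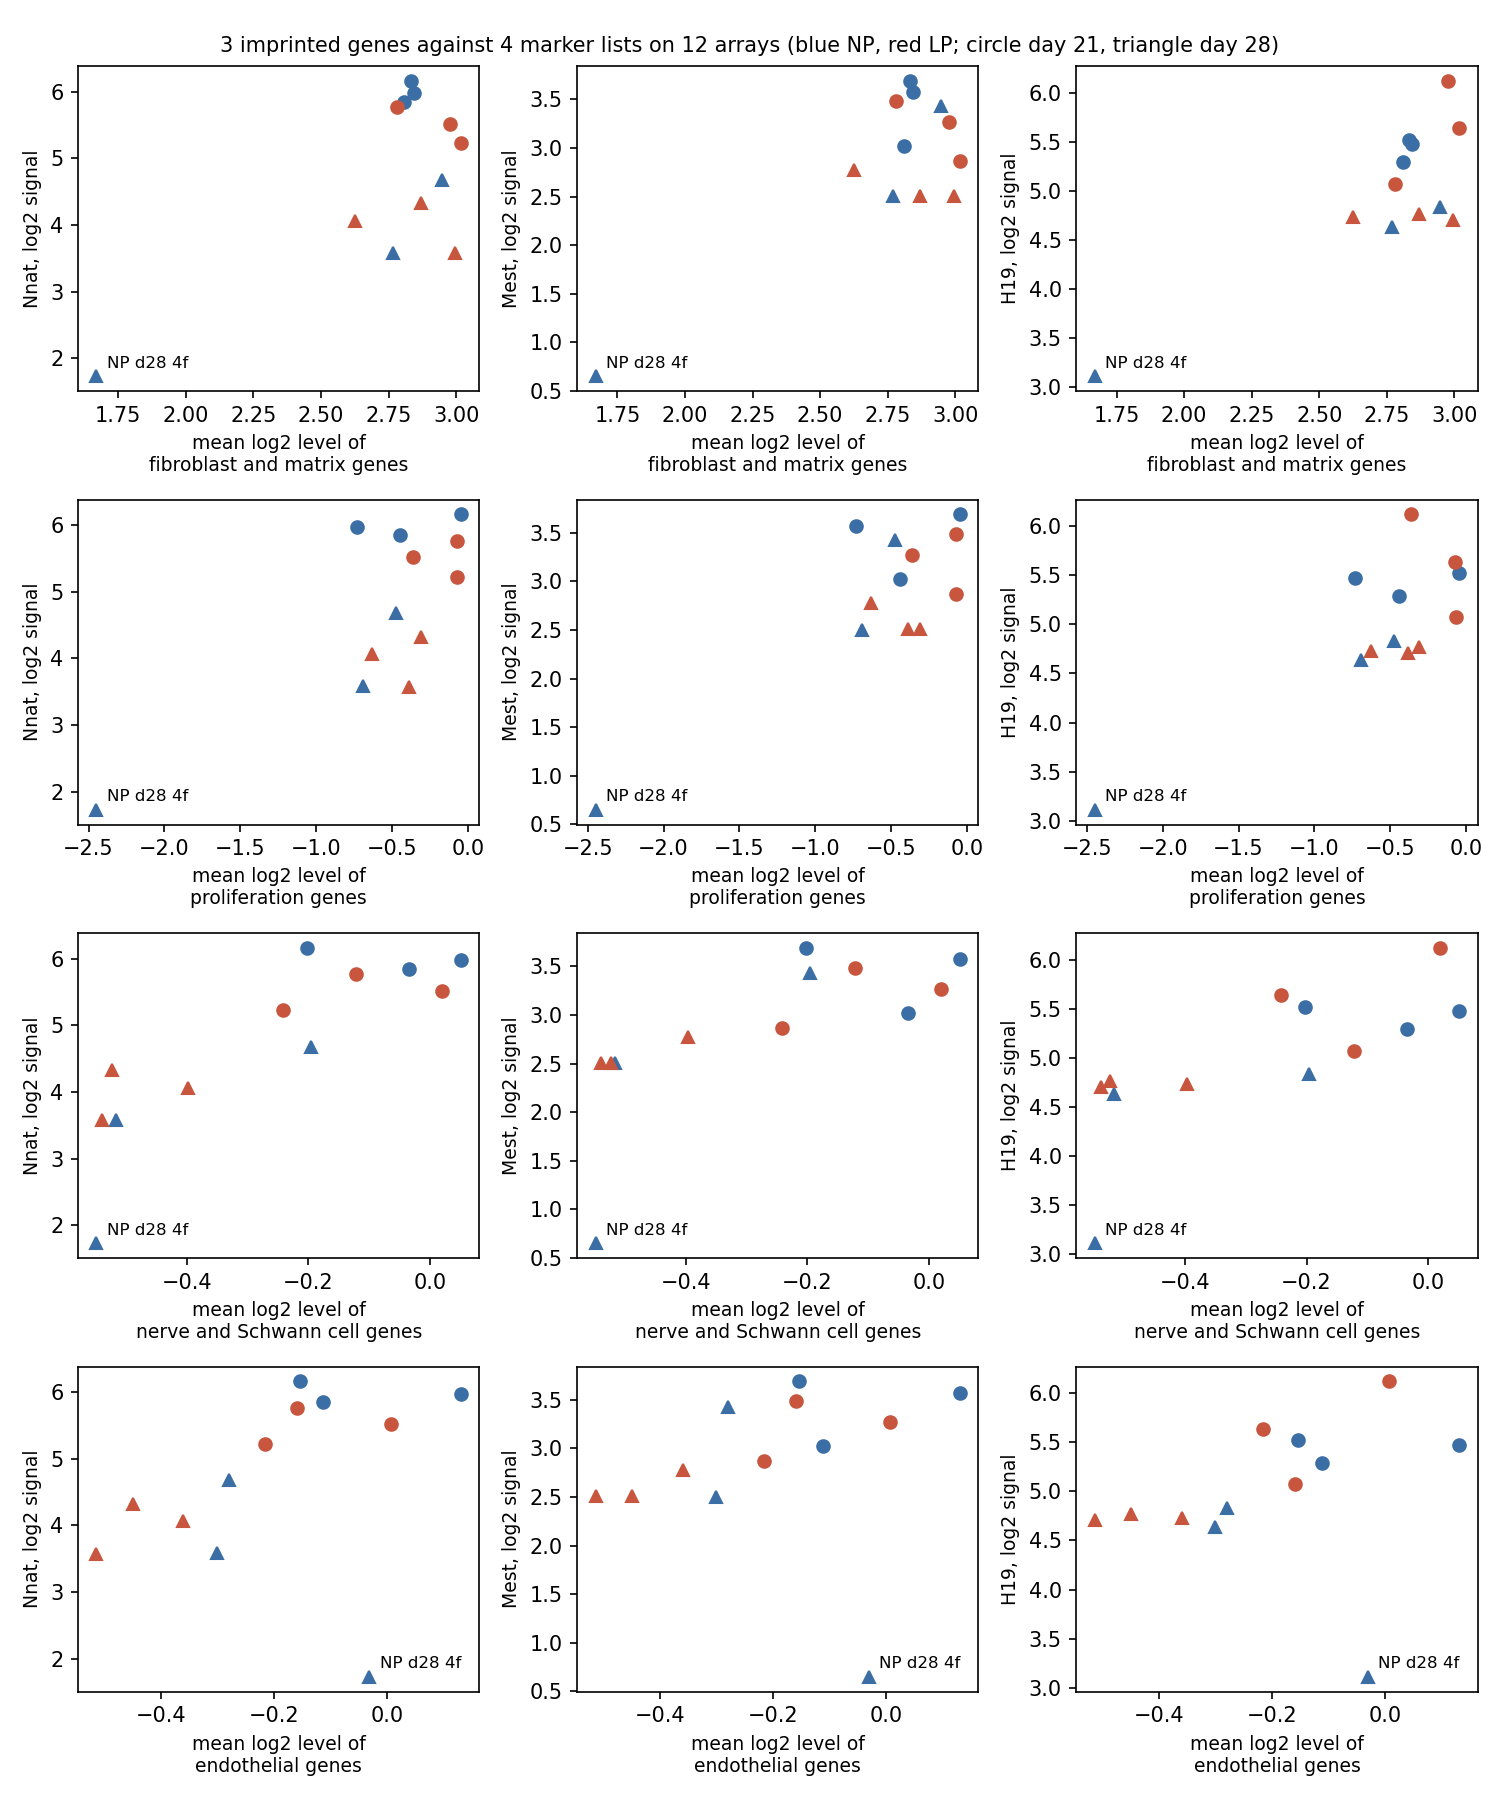
Log2 signal of Nnat, Mest and H19 (vertical axes) against the mean log2 level of 4 marker lists in each of the 12 rats, in rows from the top the fibroblast and matrix, proliferation, nerve and Schwann cell, and endothelial genes (blue NP, red LP; circle day 21, triangle day 28). NP d28 rat 4f stands at the lower left in the first 3 rows and apart from the other rats in the endothelial row, and the nerve list was lower in most day 28 rats than in day 21 rats.

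The maternal diet contrast asked whether protein restriction in pregnancy left a mark on these genes in the daughters. No member passed the test between LP and NP on either day. On day 21 none of 7 was called by limma (0% of all probes called) and none had an unadjusted p under 0.05 (4.36% of all probes). On day 28 none was called either (0% of all probes), with none under an unadjusted p of 0.05 (8.07% of all probes). The limma adjusted p of the members ran from 0.894 to 0.965 on day 21 and from 0.613 to 0.902 on day 28. The intervals were wide, so the data do not show that the diets gave equal levels. On each slide the 3 NP arrays and 1 LP array lay in row 1 and the other 2 LP arrays in row 2, so diet was partly tied to position. With the row as a covariate, Dlk1 and Plagl1 on day 28 were at -0.41 and -0.0063, below 0.

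On day 21 LP minus NP was 0.18 for H19 (95% confidence interval -0.72 to 1.08), -0.22 for Mest (-1.46 to 1.01) and 0.08 for Ndn (-0.37 to 0.52). It was 0.15 for Grb10 (-0.33 to 0.63), 0.20 for Plagl1 (-0.21 to 0.62) and 0.66 for Dlk1 (-0.79 to 2.11). The tightest intervals at these probes were thus those of Ndn, Plagl1 and Grb10, which left out differences above 0.63. The second Grb10 probe, at 0.17 (-0.41 to 0.75), did not leave them out, and that of Plagl1 is given below. Nnat was the 1 member whose groups did not overlap, all LP rats of day 21 (5.22 to 5.77) lying below all NP rats (5.85 to 6.16), where 11.5% of all probes did not overlap. Its difference was -0.49 (-1.78 to 0.80, limma adjusted p = 0.923; exact permutation p = 0.1, the smallest possible), and the groups did overlap at its second probe, which differed by -0.37. The second Plagl1 probe went the other way from the first, at -0.34 (-0.90 to 0.23).

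On day 28 the LP mean was higher than the NP mean for all 7 members, with a median difference of 0.27 against -0.05 over all probes, but no member's groups separated (16.8% of all probes did). The differences were 0.66 for Nnat (-0.64 to 1.95), 0.54 for H19 (-0.36 to 1.44), 0.40 for Mest (-0.83 to 1.64) and 0.25 for Ndn (-0.20 to 0.70). Those of Grb10, Plagl1 and Dlk1 were 0.27 (-0.20 to 0.75), 0.11 (-0.31 to 0.52) and 0.23 (-1.22 to 1.68). Without NP d28 rat 4f the direction was no longer shared: Nnat was at -0.14, Mest at -0.37, H19 at 0.00088 and Ndn at 0.08.

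**Figure D4:**
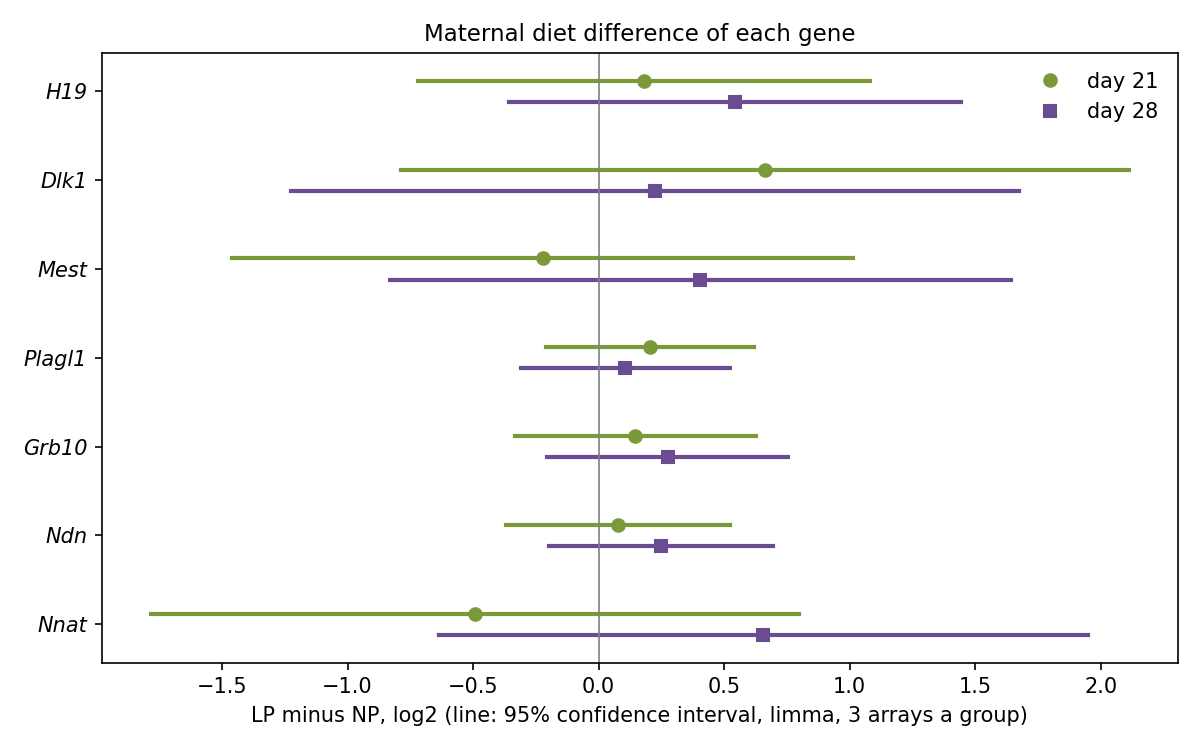
LP minus NP (log2) of each member on day 21 (green circles) and day 28 (purple squares), with 95% confidence intervals from limma on 3 arrays a group. Every interval crosses 0, and those of Plagl1, Ndn and Grb10 are the narrowest.

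The change of the diet difference between days was not called for any member by limma (0% of all probes called; none of 7 and 2.26% of all probes at an unadjusted p under 0.05). The largest was that of Nnat, where LP minus NP moved from -0.49 to 0.66, a shift of 1.15 (95% confidence interval -0.68 to 2.98). Without NP d28 rat 4f this shift was 0.35.

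Other imprinted genes were read beside the members, from 2 lists made by parent of origin. With a tested probe they held 15 genes listed as paternally and 26 as maternally expressed. The lists take no account of tissue, and whether these genes are imprinted in the mammary gland was not measured. Over both diets 2 of the 41 fell from day 21 to day 28 and none rose, where 1.81% of all probes were called and 0.767% were called lower. Igf2, the fetal growth factor that shares a locus with H19, was at 3.05 to 4.49 on day 21 and at 0.79 to 2.23 on day 28. It fell by 2.31 (4.97-fold lower; SE 0.27; limma adjusted p = 0.00554) and kept the call in all 22 alternatives. Osbpl5, a lipid transfer protein of the same chromosomal cluster, fell by 0.69 (SE 0.12, limma adjusted p = 0.0243), with -4.23 to -3.75 on day 28 against -3.67 to -3.02 on day 21. It kept the call in 12 of 22 alternatives, its adjusted p running from 0.0167 to 0.0834. The days did not overlap for either gene. At an unadjusted p under 0.05 there were 9 lower and 2 higher genes of 41 (9.35% and 9.89% of all probes), and the lists' median difference was -0.07, against 0.01 over all probes.

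Igf2 differed between days by -1.81 in NP (limma adjusted p = 0.106) and by -2.82 in LP (limma adjusted p = 0.088). The difference between these changes was -1.01 (95% confidence interval -2.22 to 0.21). Unlike H19, Igf2 was not lowest in NP d28 rat 4f (1.28, against 0.81 and 2.23 in the other NP rats of day 28). Cdkn1c, the maternally expressed CDK inhibitor of the neighbouring domain, was lower on day 28 by 0.37 (SE 0.13, limma adjusted p = 0.153).

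Within single diets no gene of the lists was called by limma; at an unadjusted p under 0.05, 4 of 41 were lower and 1 higher in NP (4.9% and 7.9% of all probes), and 6 lower and 1 higher in LP (5.65% and 4.46%). The lowest unadjusted p-values in NP were those of Osbpl5 (-0.87), Igf2 and Blcap (-0.37), a gene whose intron holds Nnat, and in LP those of Igf2, Slc22a3 (1.47, an organic cation transporter) and Osbpl5 (-0.51). For the diet contrast none of 41 was called by limma on either day, with 1 gene on day 21 and 2 genes on day 28 under an unadjusted p of 0.05 (4.36% and 8.07% of all probes), shares no higher than those of all probes. On day 21 the 3 lowest were Phlda2, a maternally expressed regulator of placental growth (0.72, SE 0.23, limma adjusted p = 0.861), Cobl (0.70) and Ddc (0.54). On day 28 they were Nap1l4 (-0.24), Zrsr1 (-0.40) and Ddc (0.69), with limma adjusted p = 0.581 for each. In the change of the diet difference between days, none was called by limma, 1 was lower at an unadjusted p under 0.05 (2.26% of all probes in either direction), and the lowest unadjusted p-values were those of Nap1l4 (-0.30), Blcap (0.29) and Igf2.

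Among the 6 members well above background throughout, the levels of H19, Mest, Ndn and Nnat followed one another across the 12 arrays, with r from 0.823 to 0.915. After removal of the 4 group means these values were 0.612 to 0.956, the highest for Mest and Nnat. The spread was widest within NP d28 (SD 1.49 for Nnat and 1.42 for Mest), where rat 4f was lowest for all 4 genes. The 4 genes did not go together in every group. In LP d21, rat 4a was the lowest of its group for H19 (5.07) and Ndn (1.78) but the highest for Nnat (5.77) and Mest (3.48). With these 4 genes, Grb10 had r from 0.475 (Mest) to 0.798 (Ndn) and Plagl1 from 0.338 (Mest) to 0.682 (Ndn). Grb10 within groups was closest to Igf2 (0.804). All points share their arrays and the scaling to the 75th percentile, and NP d28 rat 4f weighs in each.

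The genes most like each member over the 12 arrays were sought among 17431 genes well above background on all of them. For Nnat they were Cd81, Kazald1 and Mrgprf (r = 0.969, 0.943 and 0.935), and for H19 Kazald1, Mfap2 and Mmp23 (0.969, 0.963 and 0.954). Kazald1 was thus near the top for both. Cd81, a tetraspanin, is itself on the list of maternally expressed genes. Those of Mest were RGD1560394, Armc6 and Gmppb (0.961, 0.946 and 0.938), and those of Ndn were Prkcdbp, Sept8 and Cdc42ep5 (0.958, 0.951 and 0.945). Grb10 was followed by LOC687426, Dennd2a and Spg20 (0.967, 0.931 and 0.929), and Plagl1, less closely, by Cyp20a1, Rwdd1 and Gchfr (0.899, 0.880 and 0.870). No member was among the 3 genes most like another member.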

How the data were processed

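Total RNA was labelled with Cy3 and hybridised to Agilent whole rat genome arrays. The authors processed the scans with Agilent Feature Extraction 10.7.3.1, and the deposited scanner files hold a background-subtracted intensity for each of 58717 gene spots. A deposited table gives, for each spot, the ratio of this intensity to the median of the array, and served as an alternative. From the deposited intensity, the log2 value minus the array's 75th percentile was computed here, flagged spots were left out, and spots of a probe were averaged. Of 30367 probes, the 23209 that at least 3 of the 12 arrays read above background were tested with limma 3.58.1 (R 4.3.3), all 4 groups in 1 fit, with Benjamini-Hochberg adjustment over all tested probes at a threshold of 0.05. Exact permutation tests were two-sided, and scripts were tested on simulated data. Each member was represented by its brightest probe, with the other probe beside it. Other imprinted genes were named where called, or else the 3 with the lowest p, along with Igf2 and Cdkn1c. Members and lists were chosen with earlier results of these data known. Alternatives changed the background correction, normalisation, filter, model and probe, and left out each array. Depth on arrays is limited by their number and the signal over background.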

Additional observations from a re-analysis of the deposited data

How the results depend on the processing

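Igf2 kept its call between days in every alternative run. The call of Nnat was lost (0 members called) with no filter on dim probes (limma adjusted p = 0.0555). The row on the slide as a covariate lost it too (0.0583). So did a replicate block, fitted over all arrays (0.0887) or within diet (0.0938). The last 3 of these fits left fewer residual degrees of freedom, and why the call was lost was not tested. The labels do not say what the replicate numbers mark, and the rats were not taken as paired. Deviations of same-numbered rats of a diet correlated between days at -0.06 to 0.38, above 0.1 in 4 of 6 pairs. Of the day 21 rats, 5 of 6 correlated best with the day 28 rat of their own number. The paper states that 3 rats per litter were killed on each day. Same-numbered rats may therefore be littermates, which the labels do not settle. Counts of members with an unadjusted p under 0.05 changed as follows. For the day change in LP, 1 member became 3 with quantile normalisation, with normexp background and without the 2 arrays that stood apart (chosen after seeing the data), 2 with either block, and 5 with only the arrays of the comparison. For the day change in NP, 3 became 5 with normexp. For LP minus NP on day 21, 0 became 1 with only the arrays of the comparison.

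Uncalled differences that turned sign were these. With the block, Grb10 and Ndn on day 21 were at -0.091 and -0.10, and Dlk1 and Plagl1 on day 28 at -0.011 and -0.041. With the row, Grb10, H19, Mest and Ndn on day 21 were at -0.11, -0.089, 0.0057 and -0.048, and Dlk1 and Plagl1 on day 28 at -0.41 and -0.0063. With the other probe, Plagl1 on day 21 was at -0.34, and the change of the diet difference at -0.12 for Grb10 and 0.38 for Plagl1. Without the 2 arrays that stood apart, Mest and Nnat on day 28 were at -0.37 and -0.14, Dlk1 between days at -0.15 in NP and -0.052 over both diets, and the change of the diet difference at 0.20 for Dlk1, -0.17 for H19, -0.32 for Mest and -0.026 for Ndn.

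Leaving out each array in turn gave 0 to 2 members called between days over both diets, and 3 to 6 members with an unadjusted p under 0.05 there, 2 to 5 in NP and 0 to 3 in LP. For LP minus NP these counts were 0 to 1 on day 21, 0 to 2 on day 28 and 0 to 1 for the change between days. The ranges that crossed 0 were, for LP minus NP on day 21, H19 (-0.074 to 0.45) and Ndn (-0.037 to 0.17), and on day 28, Dlk1 (-0.27 to 0.94), Mest (-0.37 to 1.02) and Nnat (-0.14 to 1.33). For the change of the diet difference they were Dlk1 (-0.93 to 0.28), Grb10 (-0.025 to 0.29), H19 (-0.18 to 0.68), Mest (-0.15 to 1.25) and Plagl1 (-0.31 to 0.050). Between days Dlk1 ran from -0.15 to 1.06 in NP, from -0.30 to 0.63 in LP and from -0.010 to 0.60 over both diets. Precision was limited by 3 arrays a group, and the signal of Dlk1 lay near background.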
